A study of Mus musculus with 9 samples.

Results

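The membrane-spanning 4A (MS4A) family was followed through RNA-sequencing of CD11b+ B cells, CD11b- B cells and peritoneal macrophages (PMs). Its members here were 10 genes taken by symbol, *Ms4a1*, *Ms4a4a*, *Ms4a4b*, *Ms4a4c*, *Ms4a6b*, *Ms4a6c*, *Ms4a6d*, *Ms4a7*, *Ms4a8a* and *Ms4a14*, out of 55322 genes in the authors' table. All mice were wild type on the C57BL/6J background according to the labels and the methods, and no source used here gives their age. CD11b+ and CD11b- B cells were sorted from the bone marrow (BM) 48 h after LPS (5 mg/kg), a component of the outer membrane of Gram-negative bacteria, once cells carrying markers of T cells, NK cells, granulocytes and erythroid cells had been depleted. PMs (CD11b+F4/80+) were sorted from the peritoneal cavity of untreated mice. There were 3 libraries in each group. PMs therefore differed from both B cell groups in cell type, tissue and treatment at once, and the parts of these in any difference from PMs cannot be told apart. No untreated B cells were analysed here, so nothing below measures the effect of LPS.

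MS4A proteins cross the membrane 4 times and sit in complexes with other surface receptors, whose signalling they adjust. CD20, the product of *Ms4a1*, is the classical surface antigen of B cells and the target of therapeutic antibodies. Other members are known from macrophages and monocytes (*Ms4a4a*, *Ms4a6d*, *Ms4a7*, *Ms4a8a*) or from T cells (*Ms4a4b*), so the family as a whole is used to tell leukocyte lineages apart.

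Libraries held from 18014658 to 35251215 reads on genes, as recovered from the deposited FPKM. Sums of FPKM over 10 B cell genes ran from 4945 to 5742 in CD11b+ B cells, from 6315 to 7079 in CD11b- B cells and from 58.5 to 116 in PMs, and sums over 10 macrophage genes from 146 to 333, from 97.1 to 125 and from 20467 to 55377. *Itgam*, which encodes CD11b, the protein used in the sort, was at 1.92, 1.31 and 1.51 in CD11b+ B cells, 0.3996, 0.251 and 0.869 in CD11b- B cells and 358, 254 and 251 in PMs, so that no library went against its label. The CD11b+ libraries also carried neutrophil genes, with sums over 10 genes of 640, 1540 and 215 in replicates 1, 2 and 3, against at most 3.004 in CD11b- B cells and 21.4 in PMs. Although the study treats the 3 libraries of a group as biological replicates, the sources used here do not say whether each came from its own animal, so p-values measure the spread between these libraries. The study sequenced RNA in more than 1 trial, and the sources used here do not say which trial these libraries belong to. The labels give no batch. FPKM is a level per kilobase of exon, scaled to the reads of the library. The exon lengths in the authors' table ran from 836 bases for *Ms4a4a* to 8780 for *Ms4a4b*, whose coding sequences have 708 and 678 bases. The order, shares and ratios of different genes in FPKM depend on these lengths. Log2 fold changes are differences of mean log2(FPKM + 1), which understates the change of low genes, and adjusted p are from limma with Benjamini-Hochberg adjustment over all genes tested.

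All 10 members lie on mouse chromosome 19 within 537379 bases, from 11067471 to 11604849 (GRCm38, GENCODE M21), 5 of them on each strand. *Ms4a8a*, *Ms4a1*, *Ms4a14* and *Ms4a7*, read from the minus strand, come first along the chromosome, followed by *Ms4a4a*, *Ms4a4c*, *Ms4a4b*, *Ms4a6c* and *Ms4a6b* on the plus strand and by *Ms4a6d* on the minus strand. Within this cluster some members are close copies. With gaps counted as differences, the coding sequences of *Ms4a4b* and *Ms4a4c* were 91.7% identical over 678 alignment columns. Those of *Ms4a6b* and *Ms4a6d* were 78.7% identical over 741 columns and those of *Ms4a6b* and *Ms4a6c* 73.7% over 741, while *Ms4a4a* and *Ms4a4c* shared 56.8%. The coding sequence of *Ms4a6c* had 651 bases, against 732 and 741 for *Ms4a6b* and *Ms4a6d*. Gaps therefore lower its figure, which does not rank the closeness of these copies. Reads can be told apart where the copies differ. The share of 50-base windows of a gene's transcripts that also occurred in another gene was 8.19% for *Ms4a4c*, 2.40% for *Ms4a4b*, 3.57% for *Ms4a6b*, 2.54% for *Ms4a6d* and at most 1.21% for *Ms4a1*, *Ms4a4a*, *Ms4a7*, *Ms4a8a* and *Ms4a14*. For *Ms4a6c* it was 51.4%, because an antisense long noncoding RNA gene, *BE692007*, covers 1088 of its exon bases.

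The likeness of the copies extends to the sequence upstream of their start sites, which is shown because the copies differed widely in level. The sequences are the 250 bases before the RefSeq start on GRCm38.p6, for which 8 of the 10 members had an entry, *Ms4a1* and *Ms4a6d* being the others. *Ms4a6b* is printed for its first 144 bases, up to an exon of another of its transcripts. Capitals mark bases that were identical between the members of a pair in their local alignment, and the remaining bases differed or could not be aligned. *Ms4a4b* (chr19:11443308-11443557, plus strand) and *Ms4a4c* (chr19:11407411-11407660, plus strand) had 114 identical bases among 128 alignment columns, gaps included.
Ms4a4b: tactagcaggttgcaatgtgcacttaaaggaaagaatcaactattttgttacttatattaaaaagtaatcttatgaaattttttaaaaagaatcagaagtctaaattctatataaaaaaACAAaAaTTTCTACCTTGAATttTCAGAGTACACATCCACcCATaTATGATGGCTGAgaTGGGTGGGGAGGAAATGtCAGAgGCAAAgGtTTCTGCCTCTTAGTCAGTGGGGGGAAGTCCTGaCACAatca
Ms4a4c: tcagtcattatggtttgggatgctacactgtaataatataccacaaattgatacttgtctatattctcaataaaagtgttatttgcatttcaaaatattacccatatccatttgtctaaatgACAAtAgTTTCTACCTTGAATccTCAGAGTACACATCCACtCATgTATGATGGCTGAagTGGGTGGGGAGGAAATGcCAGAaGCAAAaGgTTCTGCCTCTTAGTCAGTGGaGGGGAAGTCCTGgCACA
*Ms4a6b* (chr19:11518309-11518452, plus strand) and *Ms4a6c* (chr19:11469118-11469367, plus strand) had 148 identical bases among 180 alignment columns, gaps included. These were counted over the full 250 bases of each, so that the last capitals of *Ms4a6c* pair with *Ms4a6b* bases that are not printed.
Ms4a6b: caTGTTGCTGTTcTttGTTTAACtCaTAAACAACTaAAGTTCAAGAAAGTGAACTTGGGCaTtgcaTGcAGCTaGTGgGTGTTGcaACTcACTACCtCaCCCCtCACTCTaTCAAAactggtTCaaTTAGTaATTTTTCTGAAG
Ms4a6c: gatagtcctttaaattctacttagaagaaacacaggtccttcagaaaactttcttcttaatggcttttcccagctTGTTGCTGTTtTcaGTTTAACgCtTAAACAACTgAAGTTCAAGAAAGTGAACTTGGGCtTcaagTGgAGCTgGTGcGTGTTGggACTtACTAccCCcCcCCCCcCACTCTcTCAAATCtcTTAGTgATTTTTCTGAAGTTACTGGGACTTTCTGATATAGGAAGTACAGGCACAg
Upstream of *Ms4a8a* (chr19:11081104-11081353, minus strand), the member with the highest level in PMs, capitals mark a match to the AP-1 motif TGANTCA.
Ms4a8a: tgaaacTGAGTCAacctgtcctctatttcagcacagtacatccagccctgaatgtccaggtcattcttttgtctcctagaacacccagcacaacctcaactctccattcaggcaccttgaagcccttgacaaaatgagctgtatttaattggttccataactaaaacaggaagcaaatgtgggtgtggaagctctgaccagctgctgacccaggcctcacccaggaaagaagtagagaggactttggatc

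Among the motifs searched on both strands of these windows, GAGGAA, the core bound by PU.1, was found in 3 members (*Ms4a4b*, *Ms4a4c* and *Ms4a14*) and in 23.2% of all 32851 promoters. TGANTCA was found in 3 members (*Ms4a8a*, *Ms4a14* and the second start of *Ms4a7*) and in 6.75% of promoters. The octamer ATTTGCAT was found in *Ms4a4c* and in 1.601% of promoters, and the motif of GATA factors, AGATAA, in *Ms4a14* and in 9.99%. The E-box CANNTG was found in 5 members and in 66.2% of promoters. GAGGAA lies in the stretch shared by *Ms4a4b* and *Ms4a4c*, whereas ATTTGCAT lies in the part of the *Ms4a4c* window that could not be aligned with *Ms4a4b*. A match is a description of the letters only.

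The order of the members by level differed between B cells and PMs. In both B cell groups *Ms4a1* was highest, then *Ms4a4c*, then *Ms4a4a* and *Ms4a6c*, whose libraries overlapped, then *Ms4a6b*. This order is by FPKM, with exon lengths of 836 bases for *Ms4a4a* and 4485 for *Ms4a6b*. In reads *Ms4a6b* was above *Ms4a4a*, with 2848 against 1400 in CD11b+ and 2781 against 989 in CD11b- B cells. The other 5 members were each at a mean FPKM of 2.05 or less in CD11b+ B cells, and the means of those 5 ranged from 0 to 0.404 in CD11b- B cells. In PMs *Ms4a8a* was highest, then *Ms4a6d*, *Ms4a6c* and *Ms4a1*, none of which overlapped the next in order, and the libraries of *Ms4a4a*, *Ms4a4c*, *Ms4a4b* and *Ms4a6b* overlapped from one to the next.

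**Figure D1:**
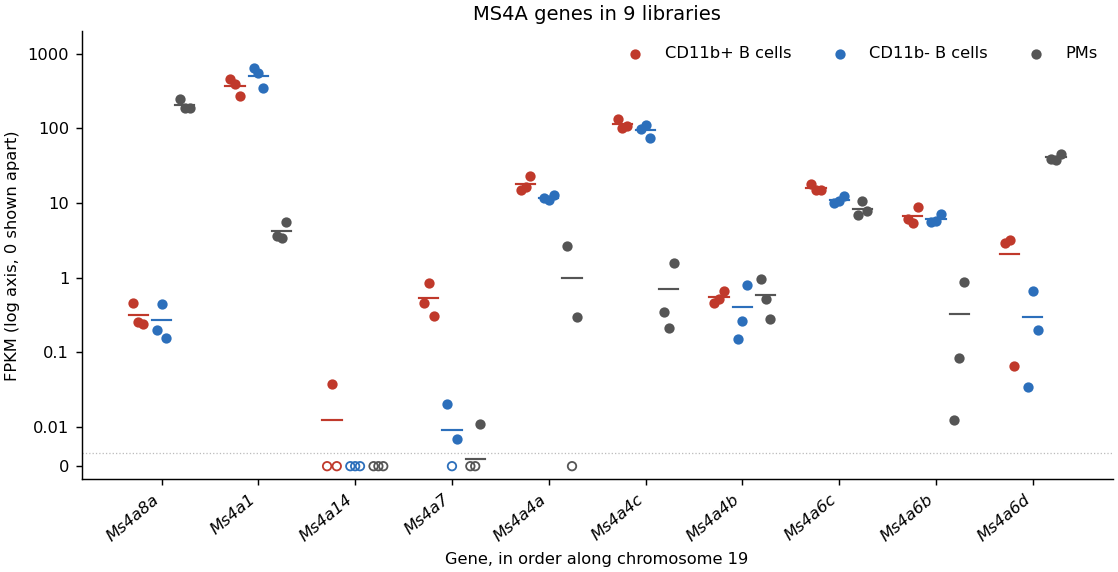
FPKM of the 10 MS4A genes (log axis, with 0 shown apart as open circles) in each of 9 libraries, in the order of the genes along chromosome 19; points are libraries and short lines are group means of 3. *Ms4a1*, *Ms4a4c*, *Ms4a4a* and *Ms4a6b* lie higher in both B cell groups than in PMs, *Ms4a8a* and *Ms4a6d* lie higher in PMs, and *Ms4a7* is above 0.3 FPKM in the 3 CD11b+ libraries alone.

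Summed over the 10 members, FPKM was 641, 529 and 429 in the CD11b+ libraries, 761, 692 and 453 in the CD11b- libraries and 299, 241 and 248 in PMs. *Ms4a1* made up 72.5, 73.2 and 63.5% of this sum in CD11b+ B cells and 83.4, 79.7 and 76.0% in CD11b- B cells, so that the 3 CD11b+ libraries lay below the 3 CD11b- libraries. *Ms4a4c* made up 20.7, 18.95 and 25.3% in CD11b+ and 12.96, 16.1 and 16.6% in CD11b- B cells, without overlap. As *Ms4a1* and *Ms4a4c* make up most of the sum, a lower share of one goes with a higher share of the other, and this is not a second result. The FPKM of *Ms4a4c* itself overlapped, from 100.3 to 133 in CD11b+ and from 75.3 to 112 in CD11b- B cells. In PMs *Ms4a8a* made up 82.1, 78.2 and 74.8% and *Ms4a6d* 13.1, 15.7 and 18.6%. These shares were computed after the values had been seen and were not tested.

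**Figure D2:**
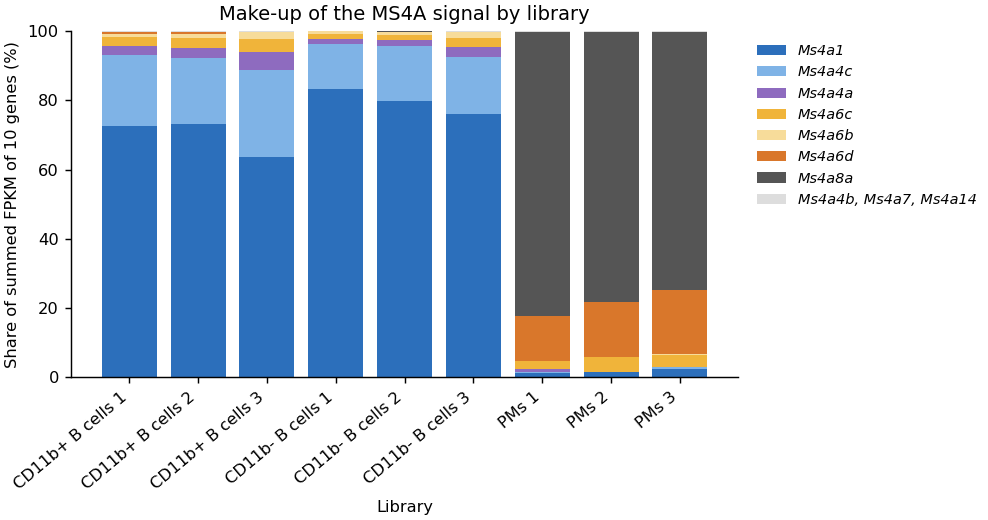
Share of each MS4A gene in the summed FPKM of the 10 genes (percent, linear axis from 0 to 100) in each of 9 libraries; *Ms4a4b*, *Ms4a7* and *Ms4a14* are drawn together. *Ms4a1* takes 63.5 to 83.4% of the sum in B cell libraries and *Ms4a8a* 74.8 to 82.1% in PM libraries.

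*Ms4a1* (ENSMUSG00000024673, chromosome 19, 11249675 to 11266241) encodes CD20, which takes part in calcium entry after engagement of the B cell receptor. Its FPKM was 465, 387 and 272 in CD11b+ B cells, 635, 551 and 344 in CD11b- B cells and 3.62, 3.41 and 5.57 in PMs. The B cell groups overlapped, and in both the lowest value was that of replicate 3. The mean in CD11b+ B cells (375 ± 96.9, SD, n = 3) was lower than in CD11b- B cells (510 ± 150) without passing the test (log2 fold change −0.43, standard error 0.29, adjusted p = 0.727; exact permutation test, p = 0.3, where 0.1 is the smallest value that 3 against 3 libraries allow). This difference was −0.22 without CD11b+ replicate 3, −0.25 without CD11b- replicate 1 and −0.69 without CD11b- replicate 3. In bulk RNA, fewer cells of a type and less RNA per cell cannot be told apart. Both B cell groups were far above PMs, by 6.17 (standard error 0.26, adjusted p = 2.38e-06) for CD11b+ and 6.60 (standard error 0.27, adjusted p = 2.32e-06) for CD11b- B cells. The PM mean was 0.823% of the CD11b- mean. The 10 B cell marker genes in PMs were at 0.325 to 4.47% of their CD11b- means (median 1.07%), so CD20 mRNA in PMs stood within the range of the other B cell genes there. Relative to *Cd79a*, which encodes a signalling chain of the B cell receptor, the level of *Ms4a1* was 0.252, 0.185 and 0.123 in CD11b+ and 0.282, 0.223 and 0.133 in CD11b- B cells, and the groups overlapped on this scale too.

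In B cells the *Ms4a4* genes stood in the order *Ms4a4c*, *Ms4a4a* and *Ms4a4b*, and in PMs all 3 were low. *Ms4a4c* (ENSMUSG00000024675, 11404770 to 11427246) had an FPKM of 133, 100.3 and 109 in CD11b+ B cells, 98.7, 112 and 75.3 in CD11b- B cells, and 0.349, 0.215 and 1.56 in PMs. It was thus the second most abundant member in each B cell library. The B cell groups overlapped (log2 fold change 0.27, standard error 0.18, adjusted p = 0.727; exact permutation test, p = 0.4), and the difference ran from 0.11 without CD11b- replicate 3 to 0.39 without CD11b- replicate 2. CD11b+ and CD11b- B cells exceeded PMs by 6.15 (standard error 0.31, adjusted p = 5.17e-06) and 5.88 (standard error 0.32, adjusted p = 8.89e-06).

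*Ms4a4b* (ENSMUSG00000056290, 11443553 to 11467055), known as an inhibitor of proliferation in T cells, had an FPKM of 0.465, 0.527 and 0.662 in CD11b+ B cells, 0.154, 0.261 and 0.796 in CD11b- B cells and 0.967, 0.523 and 0.277 in PMs. All 3 groups overlapped. Its log2 fold changes were 0.17 between the B cell groups (adjusted p = 0.783; 0.0419 without CD11b- replicate 1 and 0.36 without CD11b- replicate 3), −0.01 for CD11b+ B cells against PMs (adjusted p = 0.968) and −0.18 for CD11b- B cells against PMs (adjusted p = 0.584). In FPKM, the ratio of *Ms4a4c* to this near-identical neighbour was 286, 190 and 164 in CD11b+ and 642, 427 and 94.6 in CD11b- B cells, against 0.361, 0.412 and 5.63 in PMs. The exon lengths that enter this ratio are 1751 bases for *Ms4a4c* and 8780 for *Ms4a4b*, so it is larger than the ratio of reads. In reads, the B cell libraries held 4226 to 6843 of *Ms4a4c* and 45 to 224 of *Ms4a4b*, although the coding sequences and the upstream bases printed above are so alike.

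*Ms4a4a* (ENSMUSG00000101389, 11375523 to 11392790), whose human counterpart is a macrophage protein that associates with the beta-glucan receptor Dectin-1, was at 15.1, 16.4 and 22.8 in CD11b+ B cells, 11.6, 11.1 and 12.6 in CD11b- B cells and 2.66, 0 and 0.296 in PMs. It was well above PMs in both B cell groups, and the 3 CD11b+ libraries were above the 3 CD11b- libraries. The log2 fold change was 0.56 (standard error 0.18), with an unadjusted p of 0.0154 and an adjusted p of 0.528 by limma, and the exact permutation test gave p = 0.1. The highest value was in CD11b+ replicate 3, in which the sum of FPKM over 6 plasma cell genes was also highest (590, against 203 to 228 in the other CD11b+ libraries and 85.2 to 150 in CD11b- B cells). Most of the sum in that library came from *Jchain*, at 101, 83.9 and 449 in CD11b+ replicates 1, 2 and 3. Within the CD11b+ group *Xbp1*, *Sdc1* and *Tnfrsf17* were also highest in replicate 3, whereas *Prdm1* and *Irf4* were highest in replicate 1. Without CD11b+ replicate 3 the difference of *Ms4a4a* was 0.39, and the part of plasma cell genes in the result was not tested. CD11b+ B cells were above PMs by 3.48 (standard error 0.48, adjusted p = 0.00118) and CD11b- B cells by 2.93 (standard error 0.47, adjusted p = 0.00252). The second of these calls was lost with edgeR on the recovered reads of genes that pass its filter (3.21, adjusted p = 0.0921), where the 3 PM libraries held 40, 0 and 5 reads.

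*Ms4a6b* (ENSMUSG00000024677, 11516512 to 11531256) was at 6.07, 5.42 and 8.94 in CD11b+ B cells, 5.61, 5.80 and 7.20 in CD11b- B cells and 0.0124, 0.0840 and 0.884 in PMs. Replicate 3 was highest in each of the 3 groups, and the B cell groups overlapped (log2 fold change 0.10, standard error 0.22, adjusted p = 0.890; exact permutation test, p = 0.7). Against PMs it was higher by 2.59 (standard error 0.37, adjusted p = 0.00134) in CD11b+ and by 2.49 (standard error 0.33, adjusted p = 0.000966) in CD11b- B cells. The sum of FPKM over 10 T cell genes was highest in replicate 3 of both B cell groups as well, at 14.0, 15.5 and 33.3 in CD11b+ and 12.9, 12.3 and 56.3 in CD11b- B cells, most of it from *Lck* and *Il7r*. *Cd3e*, a chain of the T cell receptor complex, was at 0.0668, 0.206 and 0.334 in CD11b+ and at 0, 0 and 0.0994 in CD11b- B cells; the part of T cell RNA in the level of *Ms4a6b* was not tested.

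*Ms4a6c* (ENSMUSG00000079419, 11469366 to 11482192) had group means that lay within a smaller ratio of each other than those of any other member with a mean above 1 FPKM. Its FPKM was 17.8, 14.8 and 15.1 in CD11b+ B cells, 10.03, 10.7 and 12.3 in CD11b- B cells and 6.88, 10.5 and 7.95 in PMs. The CD11b+ libraries lay above all others, while CD11b- B cells and PMs overlapped. Between the B cell groups the log2 fold change was 0.49 (standard error 0.15), with an unadjusted p of 0.0129 and an adjusted p of 0.507 by limma. CD11b+ B cells were 0.85 above PMs (standard error 0.22, adjusted p = 0.0219). This call was lost under median-ratio scaling, in which the median gene sets each library's factor (0.39, adjusted p = 0.312), under quantile normalization, which gives all libraries the same distribution (0.41, 0.293), under edgeR (0.38 with and 0.44 without its filter, 0.450 and 0.522) and DESeq2 (0.38, 0.427), and without CD11b+ replicate 1 (0.77, adjusted p = 0.0889), CD11b+ replicate 2 (0.90, 0.0657) or PM replicate 3 (0.82, 0.0614). The fold was thus smaller with the other scalings and count models, and about as large with a library left out. CD11b- B cells differed from PMs by 0.36 (standard error 0.21, adjusted p = 0.225).

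The level of *Ms4a6c* is uncertain for a second reason. The library kit does not mark strand, and the sources used here do not say whether the counting used it, so reads from *Ms4a6c* and from its antisense neighbour *BE692007* cannot be told apart over the shared exons. *BE692007*, named after its values were seen, was at 16.6, 13.8 and 18.0 in CD11b+ B cells, 16.8, 16.4 and 14.9 in CD11b- B cells and 1.72, 1.83 and 0.502 in PMs. The 2 genes thus had different profiles, with *BE692007* alike in the B cell groups and low in PMs. With the reads of both summed, an alternative chosen after seeing the data, the log2 fold changes were 0.12 between the B cell groups (adjusted p = 0.759), 2.02 for CD11b+ B cells against PMs (adjusted p = 0.000456) and 1.90 for CD11b- B cells against PMs (adjusted p = 0.000420). In FPKM, with exon lengths of 2050 and 4485 bases, the ratio of *Ms4a6c* to its close copy *Ms4a6b* was 1.69 to 2.93 in the 6 B cell libraries and 556, 125.5 and 8.997 in PMs.

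*Ms4a6d* (ENSMUSG00000024679, 11586604 to 11604849), whose product pairs with the macrophage receptor Vsig4, was the second member by level in PMs. Its FPKM was 39.1, 37.9 and 46.0 in PMs, 2.92, 3.17 and 0.0654 in CD11b+ B cells and 0.0345, 0.661 and 0.198 in CD11b- B cells. The first 2 CD11b+ libraries, with 149 and 144 reads, stood above the rest of the B cell libraries, and CD11b+ replicate 3, with 4 reads, lay among the CD11b- libraries, which held 2, 40 and 11 reads. CD11b+ minus CD11b- B cells came to 1.03 on the log2 scale (standard error 0.51, adjusted p = 0.680; exact permutation test, p = 0.3), to 1.67 without CD11b+ replicate 3 (adjusted p = 0.107), and to 0.73 and 0.68 without CD11b+ replicates 1 and 2 (adjusted p = 0.689 and 0.703). Both groups were lower than PMs, with log2 fold changes of −4.01 (standard error 0.50, adjusted p = 0.000676) in CD11b+ and −5.04 (standard error 0.24, adjusted p = 5.30e-06) in CD11b- B cells. The means in B cells were 5.01 and 0.726% of the PM mean.

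*Ms4a8a* (ENSMUSG00000024730, 11067471 to 11081102), known from alternatively activated macrophages, marked PMs most sharply. It was at 245, 188 and 185 in PMs, 0.455, 0.255 and 0.237 in CD11b+ B cells and 0.200, 0.447 and 0.156 in CD11b- B cells. The PM libraries held 24519 reads together, against 51 in the CD11b+ and 49 in the CD11b- libraries. The mean in PMs was 653-fold that of CD11b+ and 770-fold that of CD11b- B cells, with log2 fold changes for B cells against PMs of −7.29 (standard error 0.20, adjusted p = 5.19e-07) and −7.35 (standard error 0.19, adjusted p = 4.21e-07). The B cell groups overlapped (0.06, standard error 0.16, adjusted p = 0.913). Its means in the B cell groups, 0.153 and 0.130% of PMs, may be set beside the 10 macrophage marker genes, which were at 0.181 to 9.72% of PMs in CD11b+ B cells (median 0.973%) and at 0.0682 to 11.0% in CD11b- B cells (median 0.121%).

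*Ms4a7* (ENSMUSG00000024672, 11321039 to 11336146), known from monocytes and tissue macrophages, was close to absent both in these PMs and in CD11b- B cells. Its FPKM was 0.466, 0.858 and 0.306 in CD11b+ B cells, 0.0202, 0 and 0.00701 in CD11b- B cells and 0, 0 and 0.0111 in PMs. In reads this was 61, 100 and 48 in the CD11b+ libraries, 3, 0 and 1 in the CD11b- libraries, and 0, 0 and 1 in PMs, so that every CD11b+ library lay above every other library. Per read on genes, the CD11b+ group held 57.7 times as many *Ms4a7* reads as the CD11b- group (95% exact interval 22.2 to 214) and 155 times as many as PMs (27.5 to 6157), where these intervals cover counting error only. On the log2(FPKM + 1) scale CD11b+ B cells lay 0.60 above CD11b- B cells (standard error 0.16), with an unadjusted p of 0.00637 and an adjusted p of 0.425 by limma, and the exact permutation test gave its smallest value, p = 0.1. Count models on the recovered reads gave an adjusted p of 0.0844 with edgeR and its filter (log2 fold change 5.77), 0.000262 with edgeR and no filter (5.75) and 8.75e-06 with DESeq2 (5.89). The call therefore depended on the test. *Ms4a7* passed the filter on FPKM through the CD11b+ libraries alone.

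Against PMs, the difference of *Ms4a7* in CD11b+ B cells was 0.60 (standard error 0.18, adjusted p = 0.0341), and CD11b- B cells against PMs were under the filter. This call was lost at the same fold with no filter on FPKM (adjusted p = 0.0679), and under quantile normalization (0.40, 0.135). It was also lost without CD11b+ replicate 1 (0.63, adjusted p = 0.0666), CD11b+ replicate 2 (0.46, 0.0628), PM replicate 1 (0.60, 0.0717), PM replicate 2 (0.60, 0.0962) or PM replicate 3 (0.61, 0.0880). It was kept by the count models, on the scale of reads, with edgeR with its filter (6.46, adjusted p = 0.00783), edgeR without it (6.51, 0.00894) and DESeq2 (6.71, 0.000164). In FPKM, with exon lengths of 1795 and 4453 bases, the ratio of *Ms4a8a* to *Ms4a7* was 0.976, 0.298 and 0.775 in the CD11b+ libraries. This was the 1 group in which the FPKM values of these members were close to each other.

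Markers of other myeloid cells were examined beside *Ms4a7* and *Ms4a6d*. The summed FPKM of 10 neutrophil genes was 215 to 1540 in CD11b+ against 1.76 to 3.004 in CD11b- B cells, and that of 8 monocyte genes 56.2 to 95.9 against 11.5 to 20.2. As with *Ms4a7*, some genes of these lists passed the filter on FPKM through the CD11b+ libraries alone, namely 5 neutrophil, 4 monocyte and 2 macrophage genes. Of the 5 neutrophil genes left, 5 had a log2 fold change above 0 and did not overlap (8.63% of all genes tested), and 2 were called (0.0689%). Of the 4 monocyte genes left, 4 were above 0, 3 did not overlap and 0 were called, and of the 7 macrophage genes left, 6 were above 0, 6 did not overlap and 0 were called. All 3 sums were lowest in replicate 3 among the CD11b+ libraries, which was the lowest of the group for 9 of 10 neutrophil, 4 of 8 monocyte and 6 of 10 macrophage genes. *Ms4a7* and *Ms4a6d* were also lowest in that library of the group. The part of such cells in these results was not tested.

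**Figure D3:**
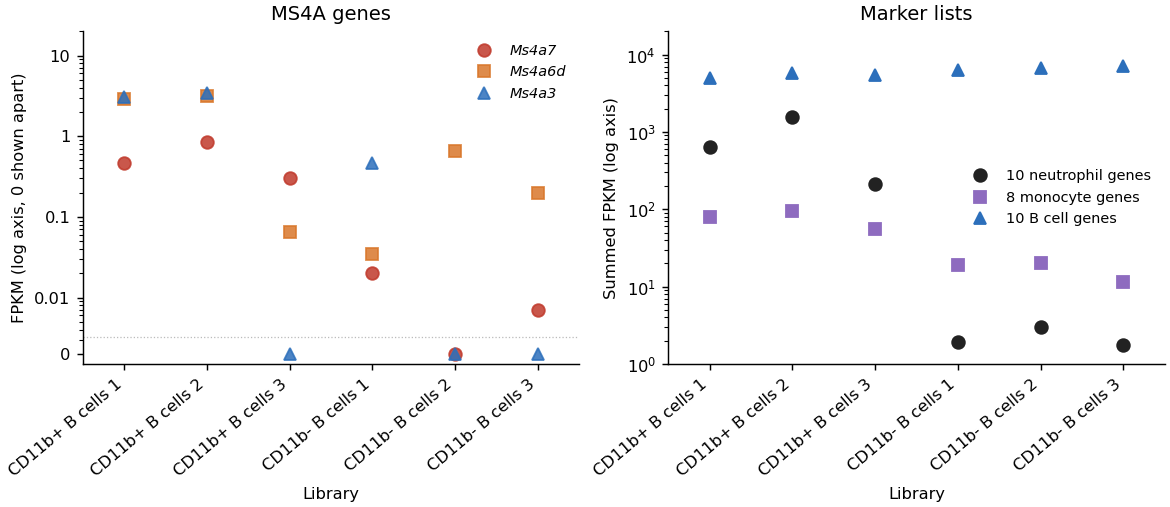
Left, FPKM (log axis, 0 shown apart) of *Ms4a7*, *Ms4a6d* and *Ms4a3* in the 6 B cell libraries; right, summed FPKM (log axis) of 10 neutrophil, 8 monocyte and 10 B cell genes in the same libraries. *Ms4a7* is highest in the 3 CD11b+ libraries, *Ms4a6d* and *Ms4a3* only in 2 of them, and CD11b+ replicate 3 has the lowest neutrophil and monocyte sums of its group.

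*Ms4a14* (ENSMUSG00000099398, 11301249 to 11314454) had 4 reads in CD11b+ replicate 2 (0.0376 FPKM) and 0 in every other library, and it was under the filter in all comparisons. With 0 reads in a group as many as 3 may still have been missed, so *Ms4a14* was not detectable at this depth in CD11b- B cells and PMs.

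Counted by comparison, 9 of the 10 members passed the filter in CD11b+ against CD11b- B cells, and limma called 0 of them. Over all 21778 genes tested it called 0.0689% higher and 0% lower. At an unadjusted p under 0.05 there were 3 members (*Ms4a7*, *Ms4a4a* and *Ms4a6c*) and 7.68% of all genes. These 3 were also the members whose groups did not overlap, all higher in CD11b+ B cells, against 8.63% of all genes in that direction and 6.32% in the other. *Ms4a7* entered these counts through the filter that its CD11b+ libraries alone passed, and it gives them no support. Without *Ms4a7*, 7 of 8 members had a log2 fold change above 0, *Ms4a1* being the other, but *Ms4a6b* (0.10) and *Ms4a8a* (0.06) changed sign under some alternatives. EdgeR without its filter and DESeq2 each called 1 member, *Ms4a7*, where edgeR called 1.11% of genes higher and 0.414% lower and DESeq2 1.89% and 0.369%. EdgeR with its filter called 0 members, 0.269% of genes higher and 0% lower.

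In CD11b+ B cells against PMs, 9 members passed the filter and 8 were called. Leaving aside *Ms4a7*, which passed through the CD11b+ libraries alone, 7 of 8 were called. *Ms4a1*, *Ms4a4a*, *Ms4a4c*, *Ms4a6b*, *Ms4a6c* and *Ms4a7* were higher, and *Ms4a6d* and *Ms4a8a* lower, where 21.5% of all genes were higher by this call and 8.78% lower. For CD11b- B cells against PMs, 8 members passed and 6 were called, the same as above without *Ms4a6c* and *Ms4a7*, where 25.8% of all genes were higher and 11.0% lower. The 2 comparisons share the PM libraries and are not independent of each other. The members called under every alternative in which they were tested were *Ms4a1*, *Ms4a4a*, *Ms4a4c*, *Ms4a6b*, *Ms4a6d* and *Ms4a8a* for CD11b+ B cells, and the same except *Ms4a4a* for CD11b- B cells.

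The scaling of the libraries bears on these directions. The median log2 fold change of all genes was 0.25 in CD11b+ B cells against PMs, 0.12 after median-ratio scaling and 0.06 after quantile normalization, and the calls went from 4760 higher and 1940 lower (71.0% higher) to 2918 and 2555 (53.3%) and to 2706 and 2700 (50.1%). For CD11b- B cells the medians were 0.24, 0.09 and 0.06 and the calls 5404 and 2306 (70.1% higher), 3401 and 3079 (52.5%) and 3415 and 3099 (52.4%). No member called in one of these comparisons changed direction there with the scaling. Of the uncalled ones, *Ms4a6c* in CD11b- B cells against PMs went to −0.12 and −0.11.

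**Figure D4:**
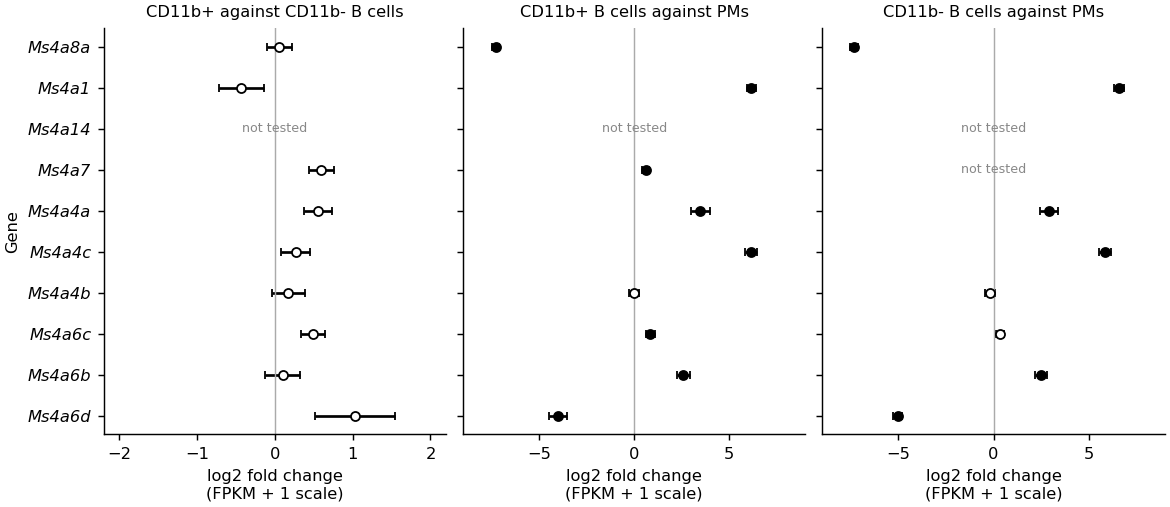
Log2 fold change on the log2(FPKM + 1) scale of each MS4A gene in 3 comparisons, with standard errors; filled points have an adjusted p under 0.05 by limma, and the left panel has its own scale. Between the B cell groups 0 points are filled and 8 of 9 lie above 0, while against PMs *Ms4a8a* and *Ms4a6d* lie far to the left and *Ms4a1* and *Ms4a4c* far to the right.

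Further genes of the family were taken from a list of 13, of which 4 passed the filter. *Ms4a3*, known from granulocyte and monocyte progenitors, was at 3.09, 3.45 and 0 in CD11b+ B cells, 0.461, 0 and 0 in CD11b- B cells and 0 in PMs. It thus had the profile of *Ms4a6d* within the CD11b+ group, with 171, 170 and 0 reads, and was not called (log2 fold change 1.21, standard error 0.54, adjusted p = 0.663). The related 4-pass proteins *Tmem176a* and *Tmem176b* were high in PMs. *Tmem176a* was at 45.2, 76.8 and 82.0 in PMs, 1.71, 2.10 and 1.97 in CD11b+ B cells and 0.582, 0.248 and 1.65 in CD11b- B cells, and *Tmem176b* at 276, 356 and 278 in PMs, 7.37, 8.36 and 10.4 in CD11b+ B cells and 2.02, 3.19 and 5.71 in CD11b- B cells. The B cell groups did not overlap for either gene, but the differences did not pass (*Tmem176b* 1.13, standard error 0.31, adjusted p = 0.408; *Tmem176a* 0.75, standard error 0.31, adjusted p = 0.644). Both were lower in each B cell group than in PMs, *Tmem176b* by −4.97 in CD11b+ B cells (adjusted p = 1.97e-06) and −6.10 in CD11b- B cells (adjusted p = 5.03e-06). *Ms4a2*, the beta chain of the high-affinity IgE receptor, had at most 25 reads in a library. *Ms4a4d*, added after its values were seen, had 11, 4 and 7 reads in the CD11b+ libraries, 0 in the CD11b- libraries and 4 in PM replicate 2.

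Partners of MS4A proteins were taken from a list of 13 genes, of which 12 were tested between the B cell groups. *Fcer1g*, the shared signalling chain of Fc receptors and the partner of the *Ms4a2* product, was the 1 gene called, where 0.0689% of all genes were called higher, at 40.6, 53.9 and 35.5 in CD11b+, 1.82, 2.03 and 1.28 in CD11b- B cells and 1293, 1925 and 1280 in PMs (CD11b+ against CD11b- B cells 4.02, standard error 0.21, adjusted p = 0.00115). Within the CD11b+ group its libraries stood in the order of their neutrophil sums of 640, 1540 and 215, and the part of neutrophil RNA in the level of *Fcer1g* was not tested. *Tyrobp*, another signalling adaptor, was at 74.1, 94.1 and 76.3 in CD11b+ and at 38.2, 57.3 and 55.4 in CD11b- B cells, without overlap and without passing (0.70, standard error 0.19, adjusted p = 0.408). Leaving aside *Fcer1a* and *Clec7a*, which passed the filter through the CD11b+ libraries alone, 3 partners were higher without overlap in CD11b+ B cells (8.63% of all genes) and 4 lower (6.32%), none of the 4 lower ones passing the test. Of the partners tested against PMs, CD11b+ B cells had 6 upward and 5 downward calls, where 21.5 and 8.78% of all genes were called, and CD11b- B cells 7 and 5, where 25.8 and 11.0% were called. The downward calls include *Trem2* in both comparisons (means of 0.0490 in CD11b+ and 0.0102 in CD11b- B cells) and *Clec7a* in CD11b- B cells (0.0191). These passed the filter there through PMs alone and give the downward counts no support.

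Partners of the macrophage members were high in PMs. *Vsig4*, the partner of the *Ms4a6d* product, was at 212, 194 and 201 in PMs and at most 0.822 in a B cell library (CD11b+ B cells against PMs −7.19, adjusted p = 6.75e-07). *Clec7a*, which encodes Dectin-1, was at 45.6, 29.8 and 39.4 in PMs, in which *Ms4a4a* was low, and at 0.478, 2.26 and 0.0323 in CD11b+ B cells (−4.50, adjusted p = 0.000147). *Trem2*, a lipid-binding receptor, was at 6.06, 9.66 and 11.4 in PMs and under 0.1 in every B cell library (CD11b+ B cells against PMs −3.22, adjusted p = 0.000213). With a mean of 0.0490 in CD11b+ B cells, *Trem2* passed the filter on FPKM through PMs alone, and its call gives no support.

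The 4 partners whose CD11b+ libraries all lay under the CD11b- libraries are genes of B cell receptor and costimulatory signalling. *Cd40*, a receptor for T cell help that associates with CD20, was at 68.8, 70.8 and 75.7 in CD11b+ and 85.4, 85.1 and 84.2 in CD11b- B cells (−0.24, standard error 0.12, adjusted p = 0.676). *Lyn*, a kinase of B cell receptor signalling, was at 118, 111 and 102 in CD11b+ B cells, 135, 130.4 and 133 in CD11b- B cells and 76.3, 86.4 and 84.3 in PMs (CD11b+ against CD11b- B cells −0.27, adjusted p = 0.672). *Cd79a* was at 1848, 2097 and 2207 in CD11b+ and 2249.9, 2473 and 2579.7 in CD11b- B cells (−0.25, adjusted p = 0.729). *Cd79b*, the other signalling chain of the receptor, was at 1374, 1646 and 1502 in CD11b+ and 1966, 1979 and 2115 in CD11b- B cells (−0.42, adjusted p = 0.688). These small differences ran in the direction of that of *Ms4a1*, and none passed the test. *Cdk2*, a kinase of the cell cycle, was at 16.3, 19.3 and 14.7 in CD11b+ B cells, 19.01, 17.3 and 14.4 in CD11b- B cells and 5.96, 2.69 and 2.41 in PMs. Its libraries overlapped between the B cell groups (−0.0097, adjusted p = 0.987). *Tnfrsf18* (GITR), the partner of the *Ms4a4b* product in T cells, was at 11.5, 10.03 and 14.1 in CD11b+ B cells and 12.5, 12.2 and 8.17 in CD11b- B cells, in both of which *Ms4a4b* itself was under 1 FPKM. *Cdkn3*, the phosphatase bound by the *Ms4a3* product, was at 15.9, 11.6 and 3.63 in CD11b+ and 4.75, 3.71 and 2.11 in CD11b- B cells (1.18, standard error 0.47, adjusted p = 0.643).

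For the members with a mean of at least 1 FPKM over the 9 libraries, the genes with the most similar pattern of log2(FPKM + 1) were sought among 12445 genes. The 9 libraries form 3 groups, so Pearson's r is a description and mainly follows the differences between groups. The closest to *Ms4a1* were *Igkv6-32* (r = 0.999), *Il21r* (0.998) and *Igkv14-100* (0.998), and to *Ms4a4c* *Ptpn4* (0.999), *Trim34a* (0.999) and *Btla* (0.998). For *Ms4a4a* they were *Phf7* (0.995), *Eaf2* (0.995) and *Gimap7* (0.991), and for *Ms4a6b* *Lck* (0.996), *2010007H06Rik* (0.994) and *1700007L15Rik* (0.993). *Ms4a6d* was closest to *Lcp2* (0.994), *Igsf6* (0.994) and *Fpr1* (0.993), and *Ms4a8a* to *Serpinb2*, *Garnl3* and *Plxdc2* (each 0.9995 or more). *Ms4a6c* had no gene above 0.96, with *Hspb6* (0.956), *Dnajb11* (0.953) and *Gm10175* (0.943) the nearest. Among the members themselves, r was 0.992 between *Ms4a1* and *Ms4a4c* and −0.991 between *Ms4a1* and *Ms4a8a*.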

How the data were processed

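RNA was sequenced from 9 libraries, 3 each of CD11b+ B cells, CD11b- B cells and PMs, which were assigned to groups and replicates by their titles. The authors trimmed read pairs from full-length cDNA libraries (SMART-seq HT), mapped them to GRCm38 with STAR (version 2.7.2b) and counted them on genes with featureCounts (version 1.6.1). The FPKM values that the authors deposited are these counts per kilobase of exon scaled to the reads on genes. The authors' second table holds a normalized signal per gene, counts divided by a size factor, for 11063 genes; it was used only to check the reads. Multiplied by exon length, FPKM gave whole reads for 100% of values, within 0.05 of a read. The submitters' processing notes list both GRCm38 and GRCm39, so positions were taken by Ensembl identifier from GENCODE M21 (GRCm38), and upstream sequences from RefSeq (GRCm38.p6).

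Each comparison used its own 6 libraries in limma (version 3.58.1; two-sided, with a mean-variance trend in eBayes) on log2(FPKM + 1). Genes under a mean FPKM of 0.05 were left out, and calls used a Benjamini-Hochberg threshold of 0.05. The scripts were first tested on simulated data. Single values were compared by an exact two-sided permutation test. Alternatives were pseudocounts of 0.1 and 0.01, no filter and a minimum mean of 1, one fit of the 9 libraries, a block for the replicate number, median-ratio and quantile scaling, eBayes without a trend, edgeR (version 4.0.16) and DESeq2 (version 1.42.0) on the recovered reads, and each library left out in turn. All members are named in every comparison; other family and partner genes are named where they passed a test between the B cell groups or reached a mean FPKM of 1 in a group, and a few were named after their values were seen. The members and the lists were chosen with earlier results of these data known.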

Additional observations from a re-analysis of the deposited data

How the results depend on the processing

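Among the values of single members under alternative settings, 440 kept their direction and their side of the threshold, 18 lost a call, 3 gained one and 13 changed sign. Between the B cell groups, 0 members were called under every setting except edgeR without a filter and DESeq2, which called 1 each, and 0 with each library left out (range 0 to 0). Against PMs the number called was 6 to 8 for CD11b+ B cells (6 to 8 with each library left out) and 5 to 6 for CD11b- B cells (6 to 6 with each library left out).

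The values that changed sign were all uncalled. *Ms4a8a* between the B cell groups went to −0.0411 under quantile normalization, −0.0178 without CD11b+ replicate 1 and −0.0061 without CD11b- replicate 3 (−0.0178 to 0.156 with each library left out), and *Ms4a6b* to −0.0898 without CD11b+ replicate 3 (−0.0898 to 0.226). *Ms4a4b* in CD11b+ B cells against PMs went to 0.0367 and 0.0671 with pseudocounts of 0.1 and 0.01, to 0.03 without CD11b+ replicate 1 and to 0.15 without PM replicate 1. *Ms4a6c* in CD11b- B cells against PMs went to −0.12 under median-ratio scaling, −0.11 under quantile normalization, −0.16 and −0.0749 under edgeR with and without its filter, and −0.18 under DESeq2. The cause was not tested.

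The labels do not say whether the numbers in the titles pair the libraries. Correlations of deviations from means of 3 libraries cannot settle it, because such deviations offset each other. Deviations from the group means of same-numbered CD11b+ and CD11b- libraries correlated at 0.203, −0.0115 and 0.167, and CD11b+ replicate 2 correlated best with CD11b- replicate 1 (0.0988). The numbers in the descriptions are shared by 2 of these pairs, those at 0.203 and 0.167, which were the highest of the 9 possible pairs, as a hint from the data only. A replicate block called 0 members between the B cell groups, by either numbering of the labels, 6 in CD11b+ B cells against PMs, without *Ms4a6c* (adjusted p = 0.0542) and *Ms4a7* (0.0727), and 6 in CD11b- B cells against PMs. With the block by description number, in which 2 numbers hold both groups and 1 residual degree of freedom is left, 0 genes were called between the B cell groups. *Fcer1g* went from 4.02 to 3.94 (adjusted p = 0.656), and the 3 called neutrophil genes lost their calls at folds about as large, *S100a8* going from 6.69 to 6.01, *S100a9* from 7.04 to 6.60 and *Retnlg* from 3.87 to 3.65. The block by title number kept these 4 calls. Depth limits *Ms4a7* and *Ms4a14*, which had at most 100 and 4 reads in a library, and the overlap with *BE692007* limits *Ms4a6c*.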
